A study of Rattus norvegicus with 12 samples.

Results

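The nuclear-encoded subunits of respiratory chain complexes III, IV and V were examined in cultured rat oligodendrocyte precursor cells (OPCs), the proliferating glial cells that give rise to myelinating oligodendrocytes. Members were all rows of the gene table whose symbol starts with Uqcr, with Cox followed by a digit from 4 to 8, or with Atp5, together with Cyc1, leaving out symbols marked as pseudogenes by "-ps". The pattern matched 43 rows, of which 2 repeated a symbol with a lower total count and were left out, so that 41 of the 30562 genes of the table were members. Of these, 9 belong to complex III, 15 to complex IV and 17 to complex V. Testing required a level above 10 CPM (counts scaled to a common library size) in at least 1 library, which 34 members (8, 11 and 15 in the 3 complexes) and 8938 genes in all passed.

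Primary OPCs were shaken off mixed glial cultures of the cortex of newborn wild-type Sprague-Dawley rats, so that each library is a bulk of many cells. Mild-hypo-OPCs (6 libraries) were kept at a FiO2 of 5%, for 6 hours by the labels of the libraries, whereas the written methods describe an exposure of 6 days. Standard OPCs (6 libraries) were kept in room air. Both groups share genotype, tissue of origin and culture method, and no label says that the libraries of a group came from separate cultures. The written description gives 3 biological replicates per group, whereas 6 libraries per group were analysed, so some may share a culture. The p-values measure the spread between these libraries, which may be technical, and would be too small if libraries share a culture.

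Complex III (cytochrome bc1) passes electrons from ubiquinol to cytochrome c, complex IV (cytochrome c oxidase) passes them on to oxygen, and both pump protons out of the mitochondrial matrix. Complex V (ATP synthase) lets protons flow back through a rotating ring in the membrane and couples that rotation to the synthesis of ATP. Complexes IV and V are assembled from a few subunits encoded in mitochondrial DNA, and complex III from only cytochrome b, together with many encoded in the nucleus. Some nuclear subunits of complex IV exist as tissue- or oxygen-dependent isoforms, of which Cox4i1 and Cox4i2 are the best known.

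Nuclear transcripts of all 3 complexes were lower in mild-hypo-OPCs. Of 34 members tested, 32 were lower and 0 higher (edgeR quasi-likelihood test, Benjamini-Hochberg adjusted p below 0.05 over all genes tested), against 17.0% of all genes tested called lower, 7.00% called higher and 24.0% called in either direction. The median log2 fold change of the members was -0.66, with a range from -1.96 to -0.15, beside a median of -0.00 over all genes tested. Every library of mild-hypo-OPCs was below every library of standard OPCs in 13 of the 34 members, and above in 0, where 5.40% and 2.94% of all genes tested separated in those directions. These levels carry the TMM scaling of the libraries, whose factors themselves differed by group (1.076 to 1.233 against 0.8088 to 0.9451). Per total count, without that scaling, 0 of the 34 members had every mild-hypo-OPC library below every standard OPC library, as had 0.134% of all genes tested. Complex IV had the lowest median, -0.82 with 11 of 11 members lower, and complex III (-0.55, 8 of 8 lower) and complex V (-0.63, 13 of 15 lower) lay closer together. Scaling to the total count alone moved the median of all genes to 0.43. Under it 15 members were lower and 2 higher, where 405 of all 8938 genes tested were lower and 5515 higher. Then 5 members had a fold change above 0, and the median of the members relative to that of all genes was -0.65. A change of scaling shifts all genes nearly alike, so this relative median could hardly move and is no check on the scaling.

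**Figure D1:**
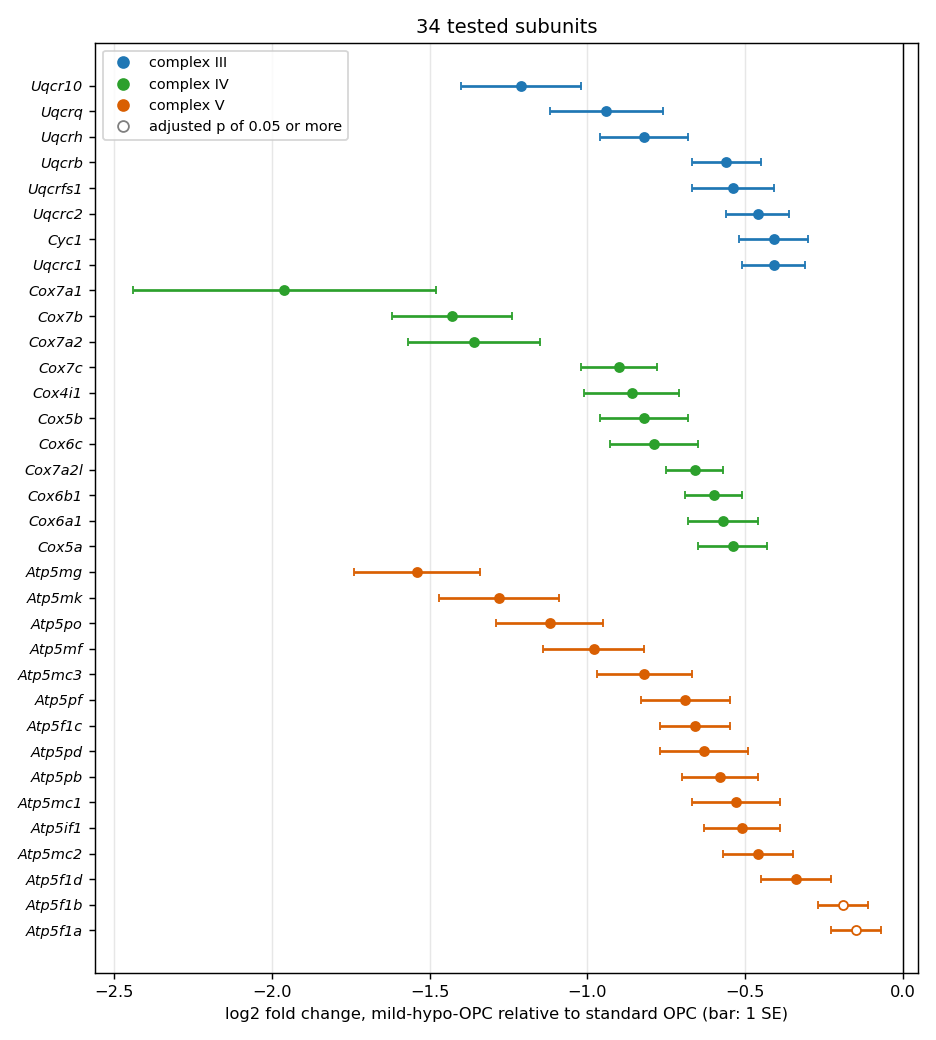
Log2 fold change of each tested member in mild-hypo-OPCs relative to standard OPCs (edgeR, bars 1 standard error), grouped by complex, with open points for an adjusted p of 0.05 or more. All 34 points lie below 0, from -1.96 (Cox7a1) to -0.15 (Atp5f1a), though Atp5f1a, Atp5f1b, Atp5f1d, Cyc1 and Uqcrc1 lie above 0 when libraries are scaled to the total count alone. Under that scaling the median of all genes is 0.43.

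Summed over the members, the level was 3891, 4374, 4680, 4558, 4137 and 5115 CPM in mild-hypo-OPC replicates 1 to 6 and 5228, 5462, 6627, 7380, 8290 and 8144 CPM in standard OPC replicates 1 to 6. On this scale the groups did not overlap, and standard OPC replicate 1 was 5228 CPM beside 5115 CPM in mild-hypo-OPC replicate 6. By complex, the sums were 598 to 814 against 811 to 1374 CPM for complex III, 880 to 1198 against 1373 to 2262 CPM for complex IV and 2413 to 3102 against 3044 to 4654 CPM for complex V, and those of complex IV alone did not overlap. Per 1e6 total counts, without TMM scaling, the members summed to 4135 to 5880 (median 5190) in mild-hypo-OPCs against 4507 to 7473 (median 5616) in standard OPCs, and these ranges overlapped, as did those of each complex. The lowest standard libraries, replicates 1 and 2, were also the most deeply counted of their group. In bulk samples, fewer cells with these transcripts and less of the transcripts per cell cannot be told apart.

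Library totals did not overlap, with 4111669 to 9022324 counts for mild-hypo-OPCs against 1356079 to 2797513 for standard OPCs, so depth and condition cannot be told apart. With log2 total count as a covariate, 1 member remained lower (Cox7a1), 19 of 34 had a negative fold change, and the median of the members relative to that of all genes was -0.02, while 0.481% of all genes were called lower. In a comparison chosen after the data were seen, the 3 libraries per group nearest in total were used (4111669 to 4873304 against 2240615 to 2797513), and 7 of 34 members were lower and 33 of 34 negative, with a relative median of -0.33 and 2.57% of all genes called lower. Thinning every library to the smallest total left 32 members lower, beside 12.3% of all genes tested. Named ribosomal RNA rows held 12% to 17.33% of counts in the libraries of mild-hypo-OPCs against 16.77% to 26.32% for standard OPCs, and their part in the result was not tested.

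**Figure D2:**
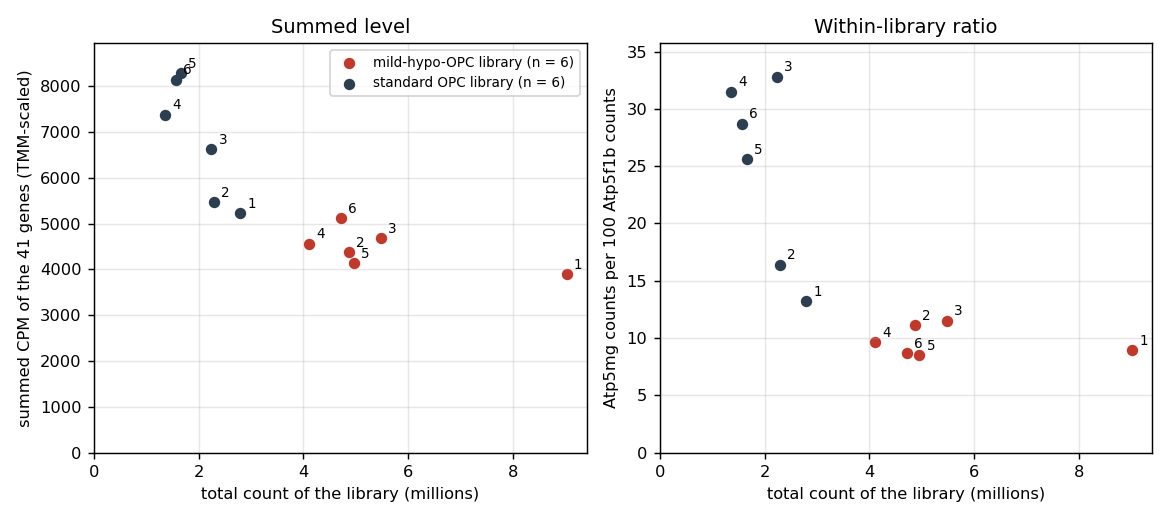
Summed CPM of the 41 members (left) and Atp5mg counts per 100 Atp5f1b counts (right) against the total count of the library in units of 1e6, with 1 point per library, numbered by replicate. Mild-hypo-OPCs lie at higher totals with 3891 to 5115 CPM and 8.48 to 11.5 counts per 100, and standard OPCs at lower totals with 5228 to 8290 CPM and 13.2 to 32.8 counts per 100.

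Most members are short genes, and the fold change over all genes varied with gene span. When tested genes were divided into 5 equal bins by genomic span in RefSeq annotation, the shortest bin (257 to 8497 bp) had a median log2 fold change of -0.26 with 37.3% called lower, and it held 22 of the 34 members. The next bin (8498 to 18375 bp) held 9 members and had a median of -0.05 with 21.1% called lower. The other 3 members lay in the middle bin (18400 to 34436 bp), which had a median of 0.02 and 11.4% called lower. After the trend of the fold change on span was removed, 27 members were lower, against 32 before, and the relative median was -0.50. Of all genes tested, 12.4% were then called lower, against 17.0% before.

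The cultures carried the defining OPC markers, with 6 of 7 listed markers in the table and a summed level of 1871 to 2001 CPM against 1675 to 1945 CPM in mild-hypo-OPCs and standard OPCs. Oligodendrocyte markers (5 of 5) summed to 10095 to 11345 against 6891 to 10103 CPM, astrocyte markers (5 of 5) to 578 to 694 against 498 to 581 CPM, and microglial markers (7 of 7) to 33.1 to 45.9 against 12.9 to 33.3 CPM. Neuronal markers (5 of 5) summed to 224 to 245 against 162 to 209 CPM and did not overlap. Most of that gap lay in Tubb3, which was called higher (means of 98.9 against 59.4 CPM). Dcx (106 against 102) and Syt1 (16.8 against 13.2) were not called. Snap25 (6.52 against 6.09) and Rbfox3 (2.67 against 3.36) were not tested. Pericyte markers (5 of 5, with Rgs5 and Abcc9 at 0) reached at most 5.14 and 2.76 CPM, endothelial markers (2 of 3, with Cdh5 at 0) 0.178 and 0.556 CPM, and muscle markers (4 of 4) 0.615 and 1.84 CPM. The part of these cell types in the result was not tested.

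**Figure D3:**
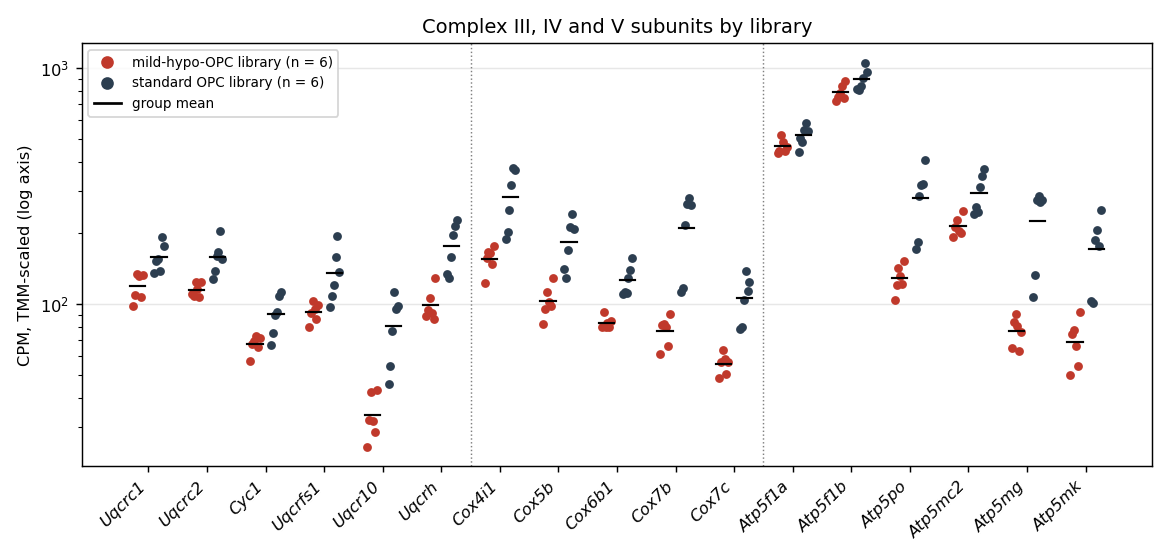
CPM (TMM-scaled, log axis) of 17 members of complexes III, IV and V, left to right between the dotted lines, with 1 point per library, 6 per group, and a bar at the group mean. On this scale the groups separate in Cox4i1 (123 to 176 against 188 to 376 CPM) and Atp5mg (63.4 to 90.2 against 107 to 286 CPM), and overlap in Atp5f1a and Atp5f1b.

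In complex III, the small subunits had the lowest fold changes. Uqcr10, a small subunit of the membrane domain, ranged from 24.7 to 43.1 CPM (median 32) in mild-hypo-OPCs against 45.9 to 112 CPM (median 85.7) in standard OPCs. No library of one group reached the other, and the log2 fold change was -1.21 (SE 0.19, adjusted p = 0.000234). Uqcrq, a small subunit next to cytochrome b, ranged from 81.4 to 143 CPM (median 111) and from 133 to 310 CPM (median 227). The groups overlapped at their edges, and the fold change was -0.94 (SE 0.18, adjusted p = 0.000802). Uqcrh, the acidic hinge protein near cytochrome c1, ranged from 85.9 to 129 CPM (median 92.9) against 129 to 227 CPM (median 177). Its groups touched without overlapping, with a fold change of -0.82 (SE 0.14, adjusted p = 0.000337). Uqcrb, a small subunit on the matrix side, ranged from 56.1 to 71.7 CPM (median 59.5) against 68.1 to 117 CPM (median 88.6), with overlap and a fold change of -0.56 (SE 0.11, adjusted p = 0.00129). Its call was lost with scaling to the total count alone (-0.12). Uqcr11, the remaining small subunit, had 9, 1, 0, 1, 5 and 3 counts in mild-hypo-OPC replicates 1 to 6 and 10, 8, 4, 0, 2 and 3 counts in standard OPC replicates 1 to 6. It was below the filter on low counts, and in the fit without that filter it was lower (log2 fold change -2.29, SE 0.54, adjusted p = 0.00283).

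The core proteins and the subunits that carry electrons had fold changes closer to 0. Uqcrc1, one of the large core proteins facing the matrix, ranged from 98.3 to 134 CPM (median 120) against 135 to 191 CPM (median 153). Its groups did not overlap, and it fell by 0.41 on the log2 scale (SE 0.10, adjusted p = 0.00689), but stood at 0.03 with scaling to the total count alone. Uqcrc2, the other core protein, ranged from 107 to 124 CPM (median 113) against 128 to 204 CPM (median 157), again without overlap, and fell by 0.46 (SE 0.10, adjusted p = 0.00221). It lost its call with scaling to the total count alone (-0.02), under which the median of all genes was 0.43. Cyc1, the haem protein cytochrome c1, ranged from 57.2 to 72.9 CPM (median 68.4) against 66.9 to 112 CPM (median 91.1). With overlapping groups it fell by 0.41 (SE 0.11, adjusted p = 0.0114), and it too stood at 0.03 with scaling to the total count alone. Uqcrfs1, the Rieske iron-sulphur protein, ranged from 80 to 103 CPM (median 93.5) against 96.7 to 194 CPM (median 128), and fell by 0.54 (SE 0.13, adjusted p = 0.00591). Scaling to the total count alone left it at -0.10, without a call. None of these core and redox subunits was called with total count as a covariate or in the libraries nearest in total. The median log2 fold change was -0.43 for the core proteins, -0.48 for the redox subunits and -0.88 for the 4 small subunits tested.

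In complex IV, all 11 tested members fell, and 6 of them separated the groups completely on the TMM scale and none of them per total count. Cox4i1, the ubiquitous form of the largest nuclear subunit and a site of regulation by ATP, ranged from 123 to 176 CPM (median 160; 799 to 1176 counts) against 188 to 376 CPM (median 285; 347 to 564 counts). The groups did not overlap, and the log2 fold change was -0.86 (SE 0.15, adjusted p = 0.000466), but it stood at 0.15 (adjusted p = 0.941) with total count as a covariate and at -0.34 (adjusted p = 0.124) in the 3 libraries per group nearest in total. Cox4i2, the isoform known as a hypoxia-responsive form in lung and some other cells, had 0 to 2 counts per library against 0 to 1, with 7 counts in all 12 libraries. A change of Cox4i2 was not detectable at this depth (adjusted p = 0.779 in the fit without the filter), and no ratio of the isoforms was formed.

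Cox5a and Cox5b, which face the matrix and of which Cox5b binds zinc, fell by 0.54 (SE 0.11, adjusted p = 0.00156) and 0.82 (SE 0.14, adjusted p = 0.000375). Cox5a ranged from 60.4 to 83.7 CPM (median 70.4) against 80.3 to 120 CPM (median 106), and Cox5b from 82.3 to 129 CPM (median 100) against 128 to 241 CPM (median 188). Both pairs of groups overlapped narrowly. Among the small subunits, Cox7b ranged from 61.5 to 90.5 CPM (median 80.4) against 112 to 282 CPM (median 239). Its groups did not overlap, and the log2 fold change was -1.43 (SE 0.19, adjusted p = 0.000143), with -0.78 (adjusted p = 0.0271) in the libraries nearest in total and -0.20 (adjusted p = 0.942) with the covariate. Cox7c, a small membrane-spanning subunit, ranged from 48.7 to 63.9 CPM (median 56.6) against 78.4 to 137 CPM (median 108), without overlap and with a fold change of -0.90 (SE 0.12, adjusted p = 0.000143). Of the Cox6 subunits around the core, Cox6a1 ranged from 205 to 266 CPM (median 236) against 265 to 422 CPM (median 355), Cox6b1, which faces the intermembrane space, from 79.5 to 92.2 CPM (median 81.2) against 110 to 156 CPM (median 121), and Cox6c from 105 to 166 CPM (median 125) against 151 to 289 CPM (median 223). Their log2 fold changes were -0.57 (adjusted p = 0.000882), -0.60 (adjusted p = 0.000216) and -0.79 (adjusted p = 0.000568), and Cox6b1 alone of the 3 had groups that did not overlap. With scaling to the total count alone, Cox5a (-0.10), Cox6a1 (-0.12) and Cox6b1 (-0.16) lost their calls. Cox5b (-0.38) and Cox6c (-0.35) kept theirs. None of these Cox5 and Cox6 subunits was called with total count as a covariate or in the libraries nearest in total. A second row carrying the symbol Cox6b1, left out as a repeat with 2214 counts in all, was also lower (log2 fold change -0.59, adjusted p = 0.00312).

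The Cox7a family holds several related genes. Cox7a2, the form found in most tissues, ranged from 20.2 to 33.6 CPM (median 30) against 36.3 to 113 CPM (median 73.5), without overlap, and fell by 1.36 on the log2 scale (SE 0.21, adjusted p = 0.000247). Cox7a2l, a related protein that joins complexes III and IV into supercomplexes, ranged from 85.8 to 99 CPM (median 94.2) against 115 to 169 CPM (median 156), also without overlap, and fell by 0.66 (SE 0.09, adjusted p = 0.000163). Its call was lost with scaling to the total count alone (-0.22). The within-library log2 ratio of Cox7a2 to Cox7a2l counts was -1.69 ± 0.21 (SD, n = 6) in mild-hypo-OPCs and -1.05 ± 0.47 (SD, n = 6) in standard OPCs. This difference of -0.63 had an exact two-sided permutation p of 0.013 (adjusted p = 0.039 over the 4 pairs compared, where 0.00216 is the smallest p 6 against 6 libraries can give), with ranges that overlapped. It lost its call in replicates 1 to 3, replicates 4 to 6 and the libraries nearest in total, for which 3 against 3 cannot go below 0.1, and also with thinned counts (-0.41, adjusted p = 0.202) and in 10 of 12 analyses that left out 1 library (-0.75 to -0.54, adjusted p from 0.00866 to 0.0779), the exceptions being the removal of replicate 2 of the mild-hypo-OPCs and of replicate 1 of the standard OPCs.

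Cox7a1, the form of heart and skeletal muscle, had the lowest fold change of all members, and its libraries of standard OPCs differed widely. It ranged from 4.97 to 14.2 CPM (median 6.45; 28 to 77 counts) in mild-hypo-OPCs, and stood at 71.5, 46.0, 10.6, 1.84, 8.66 and 8.40 CPM in standard OPC replicates 1 to 6, or 187, 87, 19, 2, 13 and 11 counts, of which the 2 counts lie below the minimum of 3 set for ratios, so no ratio to Cox7a2 was formed. Standard OPC replicates 1 and 2 were high, and the other 4 lay within or near the range of the mild-hypo-OPCs. The log2 fold change of -1.96 (SE 0.48, adjusted p = 0.00605) became -1.21 (adjusted p = 0.0489) without standard OPC replicate 1 and 0.48 (adjusted p = 0.475) in replicates 4 to 6, and it did not pass in limma-voom (adjusted p = 0.0518) or DESeq2 (adjusted p = 0.0548). The muscle and testis forms Cox6a2, Cox7b2 and Cox8c had 0 counts in every library, so no ratio was formed for Cox6a1 and Cox6a2 or for Cox7b and Cox7b2.

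**Figure D4:**
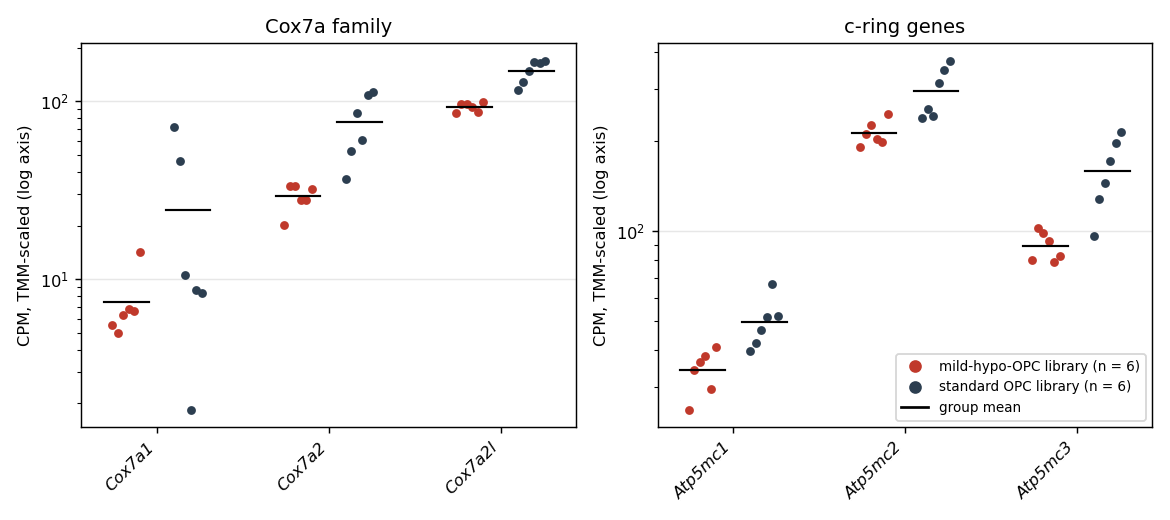
CPM (TMM-scaled, log axis) of the Cox7a family and the c-ring genes, with 1 point per library, 6 per group, and a bar at the group mean. On this scale Cox7a2 and Cox7a2l separate the groups, the c-ring genes overlap between them, and the highest points of Cox7a1 are standard OPC replicates 1 and 2 (71.5 and 46.0 CPM).

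In complex V, the subunits that form the catalytic head did not pass the test. Atp5f1b, the catalytic beta subunit, ranged from 725 to 876 CPM (median 768) against 806 to 1052 CPM (median 875), and Atp5f1a, the alpha subunit, from 435 to 521 CPM (median 452) against 439 to 586 CPM (median 522). Both overlapped between groups and did not pass the test, with log2 fold changes of -0.19 (SE 0.08, adjusted p = 0.113) and -0.15 (SE 0.08, adjusted p = 0.19). With scaling to the total count alone both were called higher (0.25 and 0.29). Under that scaling the median of all genes was 0.43, above both, and 5515 of all 8938 genes tested were called higher. Atp5f1c, the gamma subunit that turns inside the head, ranged from 133 to 163 CPM (median 149) against 161 to 301 CPM (median 243). Its ranges overlapped slightly, and it fell by 0.66 (SE 0.11, adjusted p = 0.000382), a call lost with scaling to the total count alone (-0.21). Atp5f1d, the delta subunit at the foot of the rotor, ranged from 133 to 200 CPM (median 148) against 162 to 247 CPM (median 184). It fell by 0.34 (SE 0.11, adjusted p = 0.0306), a call lost in 7 of 12 analyses that left out 1 library (mild-hypo-OPC replicates 1 to 5 and standard OPC replicates 5 and 6, with fold changes of -0.31 to -0.27 and adjusted p from 0.0715 to 0.104) and turned to 0.10 with scaling to the total count alone. Atp5f1e, the epsilon subunit, had 9 to 18 counts against 4 to 8, was below the filter, and did not pass without it (adjusted p = 0.245).

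The small membrane subunits had the lowest median of the complex V groups, -1.28, beside -0.66 for the peripheral stalk, -0.53 for the c-ring and -0.27 for the head and central stalk. Atp5mg, subunit g, which lies where ATP synthases pair up, ranged from 63.4 to 90.2 CPM (median 78.2) against 107 to 286 CPM (median 273). The groups did not overlap, and the log2 fold change was -1.54 (SE 0.20, adjusted p = 0.000131), the lowest of the complex, with -1.06 (adjusted p = 0.0208) in the libraries nearest in total and -0.48 (adjusted p = 0.820) with the covariate. Atp5mk, a small protein that stabilises the dimer, ranged from 49.9 to 92.4 CPM (median 70.2) against 101 to 250 CPM (median 181), without overlap and with a fold change of -1.28 (SE 0.19, adjusted p = 0.000213). Atp5mf, subunit f, ranged from 66.3 to 118 CPM (median 82.6) against 110 to 207 CPM (median 192) and fell by 0.98 (SE 0.16, adjusted p = 0.000305), with overlap. Atp5me, subunit e, had 1 to 6 counts against 0 to 3, was below the filter, and did not pass without it (adjusted p = 0.504). A row labelled Atp5mpl-ps1, left out as a pseudogene but with 303 to 544 counts against 108 to 243, was also lower (log2 fold change -0.77, SE 0.19, adjusted p = 0.00582), and reads shared with a near-identical copy could not be separated from it.

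Set against the catalytic subunit of the same library, Atp5mg counts per 100 Atp5f1b counts were 8.95, 11.1, 11.5, 9.61, 8.48 and 8.65 in mild-hypo-OPC replicates 1 to 6 and 13.2, 16.4, 32.8, 31.5, 25.6 and 28.7 in standard OPC replicates 1 to 6. The groups did not overlap, and standard OPC replicates 1 and 2 were the lowest of their group. Atp5f1a per 100 Atp5f1b counts, by contrast, ranged from 52.5 to 66.5 (median 59) against 54 to 62.4 (median 57). These ratios, shown against total count in the plot of depth, do not depend on the scaling of the libraries, were chosen after the values were seen, are not per length, and were given no test.

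The start regions of 4 genes are shown because they span the range of the fold changes: Atp5mg and Cox7b with large falls, Cox4i1 with a middle one, and Atp5f1b, which did not pass. Each covers 250 bases before to 50 after the annotated start in RefSeq (build GRCr8), 5′ to 3′ on the strand of the gene, and capitals mark a match to the cores searched on both strands: GCATGCGC (NRF1), CCGGAAGT (ETS) and ACGTG (HIF). The regions are chr8:54130358-54130657 (minus strand) for Atp5mg, chrX:75148786-75149085 (plus) for Cox7b, chr19:65630133-65630432 (plus) for Cox4i1 and chr7:1099808-1100107 (plus) for Atp5f1b.
Atp5mg: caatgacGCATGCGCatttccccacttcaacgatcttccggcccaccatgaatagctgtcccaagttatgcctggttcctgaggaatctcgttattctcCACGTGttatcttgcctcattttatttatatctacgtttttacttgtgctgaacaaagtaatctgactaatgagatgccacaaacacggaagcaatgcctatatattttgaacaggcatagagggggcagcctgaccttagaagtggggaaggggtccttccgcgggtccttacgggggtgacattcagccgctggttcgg
Cox7b: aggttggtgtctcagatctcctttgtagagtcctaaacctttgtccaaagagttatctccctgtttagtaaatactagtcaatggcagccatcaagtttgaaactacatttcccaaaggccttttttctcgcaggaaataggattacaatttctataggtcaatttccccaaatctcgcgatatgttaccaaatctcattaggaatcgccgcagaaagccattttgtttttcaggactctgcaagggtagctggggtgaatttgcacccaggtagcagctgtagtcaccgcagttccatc
Cox4i1: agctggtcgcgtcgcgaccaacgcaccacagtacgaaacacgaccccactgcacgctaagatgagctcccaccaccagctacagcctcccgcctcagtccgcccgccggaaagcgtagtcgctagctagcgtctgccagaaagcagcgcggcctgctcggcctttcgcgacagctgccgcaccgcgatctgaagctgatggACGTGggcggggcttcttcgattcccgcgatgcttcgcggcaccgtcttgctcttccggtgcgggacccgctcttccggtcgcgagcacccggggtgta
Atp5f1b: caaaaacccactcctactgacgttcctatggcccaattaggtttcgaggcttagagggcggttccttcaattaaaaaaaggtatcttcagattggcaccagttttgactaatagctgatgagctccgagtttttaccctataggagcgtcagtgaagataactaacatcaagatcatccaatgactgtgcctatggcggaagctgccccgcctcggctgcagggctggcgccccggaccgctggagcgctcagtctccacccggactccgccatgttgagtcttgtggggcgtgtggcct

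Atp5mg held an NRF1 core beginning at -243 from the start and overlapping HIF cores on opposite strands at -151 and -150, and Cox4i1 a HIF core at -49. Cox7b and Atp5f1b held none of these letters in their windows. Start regions were listed for 34 of the 41 members, 29 of them tested. The NRF1 core was in 6 of the 34 (17.6%, against 2.66% of all 27457 regions), and in 4 of the 29 tested members (13.8%, against 5.92% of the 7076 regions of tested genes). The other 2, Atp5me and Cox8c, were not tested. The ETS core was in 4 of the 34 (11.8%, against 4.01% of all regions), all tested (13.8%, against 9.68%), and the HIF core in 9 (26.5%, against 19.7%), of which 8 were tested (27.6%, against 26.9%). A match is a description of the sequence and not of binding.

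All 4 members of the peripheral stalk, which holds the head still while the rotor turns, fell on the TMM scale. With scaling to the total count alone, Atp5po kept its call (-0.67), and Atp5pb (-0.14), Atp5pd (-0.19) and Atp5pf (-0.26) lost theirs. None of the 4 was called with total count as a covariate. Atp5po, the subunit that confers sensitivity to oligomycin, ranged from 104 to 151 CPM (median 126) against 170 to 406 CPM (median 303), without overlap, and had a log2 fold change of -1.12 (SE 0.17, adjusted p = 0.00019). Atp5pb, which anchors the stalk in the membrane, ranged from 196 to 282 CPM (median 215) against 261 to 447 CPM (median 343), and Atp5pd and Atp5pf, small subunits along the stalk, from 136 to 214 CPM (median 158) against 175 to 340 CPM (median 243) and from 28.5 to 40.9 CPM (median 35.8) against 37.9 to 74 CPM (median 58.3). All 3 overlapped between groups, with log2 fold changes of -0.58, -0.63 and -0.69 (adjusted p = 0.00145, 0.00312 and 0.00164). Atp5if1, which blocks ATP hydrolysis by the reversed enzyme, ranged from 40.5 to 59 CPM (median 47.8) against 48.1 to 85.3 CPM (median 74.9), with overlap, and fell by 0.51 (SE 0.12, adjusted p = 0.00591). It lost its call with scaling to the total count alone (-0.07).

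The 3 c-ring genes encode the same mature proton-carrying subunit c behind different import sequences, and all fell on the TMM scale. With scaling to the total count alone, Atp5mc3 kept its call (-0.38), and Atp5mc1 (-0.09) and Atp5mc2 (-0.02) lost theirs. None of the 3 was called with total count as a covariate. Atp5mc1 ranged from 25.2 to 41.1 CPM (median 35.4) against 39.8 to 66.6 CPM (median 49.1), with a log2 fold change of -0.53 (SE 0.14, adjusted p = 0.00812). Atp5mc2 ranged from 192 to 247 CPM (median 208) against 240 to 373 CPM (median 285), with a fold change of -0.46 (SE 0.11, adjusted p = 0.00455). Atp5mc3 ranged from 79 to 103 CPM (median 87.7) against 96.4 to 215 CPM (median 159), with a fold change of -0.82 (SE 0.15, adjusted p = 0.000558). In all 3 the groups overlapped. The log2 ratio of Atp5mc2 to Atp5mc3 counts was 1.26 ± 0.19 (SD, n = 6) in mild-hypo-OPCs and 0.92 ± 0.21 (SD, n = 6) in standard OPCs, a difference of 0.34 (exact two-sided permutation p = 0.0195, adjusted p = 0.039). That call was also lost in each of the subsets of 3 libraries per group, with thinned counts (0.41, adjusted p = 0.0693) and in the same 10 of 12 analyses that left out 1 library (0.27 to 0.42, adjusted p from 0.00866 to 0.0779). The ratio of Atp5mc1 to Atp5mc2 (difference -0.09, exact permutation p = 0.377) and that of Atp5mc1 to Atp5mc3 (0.25, exact permutation p = 0.119, adjusted p = 0.159) did not pass.

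Genes that build or serve the complexes were read from hand-made lists. Their counts in the main fit stand beside the 17.0% of all genes tested that were called lower there. These counts depended on the scaling and on depth. With scaling to the total count alone, assembly factors gave 3 lower and 6 higher, mitochondrially encoded partners 0 and 4, complex II and cytochrome c 0 and 1, carriers 0 and 2, biogenesis regulators 0 and 6, and proteins that bind complex IV 2 and 1. Under that scaling 405 of all 8938 genes tested were called lower and 5515 higher, so calls of higher were common among all genes. Upper-quartile scaling left 0 mitochondrially encoded partners, 1 gene of complex II and cytochrome c and 1 carrier lower, beside 14.0% of all genes tested. With total count as a covariate, 0 genes of these lists were called, beside 0.481% of all genes tested called lower. In the libraries nearest in total 1 assembly factor was called, beside 2.57% of all genes called lower. Of 42 assembly factors, 23 were tested and 8 were lower and 0 higher (median -0.34), with the largest fall in Fmc1, an assembly factor of ATP synthase (-1.27, adjusted p = 0.00318). Of the 6 partner subunits encoded in mitochondrial DNA, 2 were lower and 0 higher (median -0.11), the larger change being in Mt-co3, a core subunit of complex IV (-0.32, adjusted p = 0.0188). Complex II and cytochrome c genes gave 3 lower and 0 higher of 5 (median -0.33), led by Sdhd, a membrane anchor of complex II (-0.57, adjusted p = 0.00726).

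Proteins that bind or tune complex IV gave 3 lower and 0 higher of 4 tested out of 8 listed (median -0.72), with Ndufa4, now counted as a subunit of complex IV, at 103 ± 10.8 CPM (SD, n = 6) against 198 ± 47.7 CPM (SD, n = 6) and a log2 fold change of -0.93 (SE 0.13, adjusted p = 0.000184). Among carriers and pores, 2 of 5 tested of 6 were lower and 0 higher (median -0.29), led by Vdac3, an outer membrane channel (-0.38, adjusted p = 0.00153). Regulators of mitochondrial biogenesis gave 1 lower and 0 higher of 9 tested of 11 (median -0.04), the 1 being Tfam, which packages mitochondrial DNA and helps to start its transcription (-0.62, SE 0.14, adjusted p = 0.00266). Transcripts of mitochondrial DNA together held 7.29% to 9.04% of the total count of mild-hypo-OPC libraries, against 5.76% to 7.85% for standard OPCs.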

How the data were processed

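The members and lists were chosen with earlier results of these data known. Bulk RNA-seq libraries of rat OPCs were grouped by their labels. Per the labels and methods, the authors trimmed reads with Trimmomatic 0.36, aligned them with STAR 2.7.9a (rat build mRatBN7.2) and used RSEM 1.3.3 for quantification, and the deposited table holds unnormalized whole-number counts of Ensembl genes, with 0 columns left unused. From these counts, genes that exceeded 10 CPM in at least 1 of 12 libraries were kept, scaled by TMM and tested in R 4.3.3 with edgeR 4.0.16 (glmQLFit and glmQLFTest, condition as the only term), with Benjamini-Hochberg adjustment at 0.05. CPM values are TMM-scaled over kept genes, and standard errors are those implied by the quasi-likelihood statistic. Total counts per library limit the precision. Isoform ratios were formed only where both genes had at least 3 counts in every library.

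Isoform pairs were compared as the within-library log2 ratio of counts plus 0.5, by an exact two-sided permutation test over 924 splits in SciPy 1.17.1. Of 12 pairs listed, 4 could be compared. Promoters and gene spans came from RefSeq (GRCr8), matched by symbol, and spans were found for 95.6% of genes tested. Cox8a, Cox8b, Cox6b2 and Uqcrhl were not analysed here.

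Genes named by rule were the core subunits, the inhibitor, members of isoform pairs, the 4 called members with the largest change in each complex, the extremes of each complex, and the called gene with the largest rise and fall in each list. Other members were named so that each is accounted for. Alternatives were limma-voom (limma 3.58.1), DESeq2 1.42.0, other scalings and filters, a replicate block, subsets of replicates, log2 total count as a covariate, thinning, removal of the trend on gene span, summing the rows of a symbol and leaving out each library. The 3 gene tests were also run on simulated counts, with means and dispersions taken from the main fit. A log2 change of 1 was given to 200 of 8938 genes. edgeR recovered 194 with 19 false calls, limma-voom 190 with 12, and DESeq2 194 with 17. Figures were drawn with matplotlib 3.10.9.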

Additional observations from a re-analysis of the deposited data

Results flagged for a closer look

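Mild-hypo-OPC replicate 6 stood above the other 5 libraries of its group in 4 members, by a gap too large for the range of the group under Dixon's test at 95%. Its level was 200 CPM for Atp5f1d (median of the others 147), 214 CPM for Atp5pd (158), 14.2 CPM for Cox7a1 (6.26) and 71.7 CPM for Uqcrb (58.9). These were 4 of 68 group tests, and chance flags about 1 in 20.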

How the results depend on the processing

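With scaling to the total count alone, 15 members were lower and 2 higher (complex III 3 lower, IV 7 lower, V 5 lower and 2 higher) and the median was -0.22 beside 0.43 for all genes. The fold change turned positive for Atp5f1a (0.29), Atp5f1b (0.25), Atp5f1d (0.10), Cyc1 (0.03) and Uqcrc1 (0.03). The split of all calls was 405 lower and 5515 higher under that scaling, and 1255 and 1136 under upper-quartile scaling, against 1520 and 626.

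Medians below in brackets are relative to all genes. In replicates 1 to 3, 16 members were lower (III 2, V 5), with a median of -0.43 (-0.44; III -0.38, IV -0.59, V -0.42). In replicates 4 to 6 the median was -0.80 (-0.80; III -0.76, V -0.77), and Cox7a1 stood at 0.48. With log2 total count as a covariate, 1 member was lower (III 0, IV 1, V 0), the median was -0.03 (-0.02; III 0.00, IV -0.18, V 0.04), and the fold change was no longer negative for Atp5f1a (0.15), Atp5f1b (0.16), Atp5f1d (0.15), Atp5if1 (0.06), Atp5mc1 (0.24), Atp5mc2 (0.08), Atp5pd (0.11), Atp5pf (0.03), Cox4i1 (0.15), Cox5b (0.01), Cox6a1 (0.00), Cyc1 (0.22), Uqcrc1 (0.00), Uqcrfs1 (0.17) and Uqcrq (0.25). In the 3 libraries per group nearest in total, chosen after the data were seen, 7 members were lower (III 1, IV 4, V 2) and the median was -0.33 (-0.33; III -0.25, IV -0.41, V -0.27). With the trend on gene span removed the median was -0.49 (-0.50; IV -0.60). The cause of these changes was not tested.

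The difference in the Cox7a2 to Cox7a2l ratio and that in the Atp5mc2 to Atp5mc3 ratio lost their calls in replicates 1 to 3 (-0.47 and 0.15), replicates 4 to 6 (-0.80 and 0.53), the libraries nearest in total (-0.38 and 0.23) and thinned counts (-0.41 and 0.41). Leaving out 1 library gave -0.75 to -0.54 and 0.27 to 0.42, and both calls held only without mild-hypo-OPC replicate 2 and without standard OPC replicate 1. The other ratios ranged from -0.15 to -0.04 (Atp5mc1 to Atp5mc2) and from 0.17 to 0.32 (Atp5mc1 to Atp5mc3, called only without standard OPC replicate 1, at 0.32).

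Leaving out 1 library left 31 to 32 members lower (complex V 12 to 13), with a median of -0.74 to -0.59. Of all genes tested, 13.1% to 18.7% were then called lower. limma-voom and DESeq2 lost Cox7a1 alone among the members, and upper-quartile scaling Atp5f1d alone. No filter, filterByExpr, thinning and summed rows changed no call among the 34 members, nor did the replicate block, under which the ratio differences stayed at -0.63 (adjusted p = 0.125, exact) and 0.34 (adjusted p = 0.188, exact) without a call. Same-numbered libraries correlated from -0.276 to 0.296 in their deviations. These values cannot show whether such libraries share a culture or batch, and the pairing was not used in the main fit.

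Without a filter, Uqcr11 was also lower (-2.29, adjusted p = 0.00283), which made 33 members, beside 8.72% of all genes tested. Cox4i2, Atp5f1e and Atp5me did not pass (adjusted p = 0.779, 0.245 and 0.504). Low counts limit the precision of all 4 genes.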
